A study of Mus musculus with 2 samples.

Results

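Osteoclasts, the cells that resorb bone, also release or display signals to the osteoblasts that rebuild it, and these signals are known as coupling factors. The 10 genes of that kind described here were chosen by name for their role: Sema4d, Efnb2, Sphk1, Spns2, Cthrc1, Lif, Wnt10b, Calcr, Tgfb1 and Pdgfb. The choice was made with earlier results of these data known. Of the 10 genes, 9 are among the 14777 with a value in at least 1 library and the 13802 that passed a minimum level. Wnt10b had no value. RNA was measured in wild-type mouse bone marrow cells in 2 libraries, 1 per group. The group M received M-CSF alone, a survival and growth factor of the macrophage lineage. The group MR received M-CSF and RANKL, the cytokine that drives precursors of this lineage to become osteoclasts. For MR the labels give 2 days with M-CSF and 2 further days with both factors, and the study's methods give a longer exposure to RANKL. How long M was cultured after its first 2 days is not given here, so an equal time in culture is not shown. The day on which RNA was taken for sequencing is not named. The cultures were whole bone marrow cells with no stated sort, and the labels do not say how many mice contributed.

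With 1 library per group there was no replicate check, no p-value was computed, and every difference below describes these libraries. Levels are given in TPM (transcripts scaled to a common total), which are adjusted for transcript length and so can be compared between genes. The log2 ratio is that of MR to M after 1 was added to each TPM, and a gene was counted as higher or lower when this ratio was above 1 or below -1. Only genes that reached 1 TPM in at least 1 of the libraries were counted. Where FPKM or coverage is given in place of TPM, 1 was added and a minimum of 1 applied in the same way. Values in these units were smaller than TPM for the coupling factors and their partners. The added 1 therefore weighs more there, and genes of low level are counted less often. In bulk RNA, a change in the number of cells of a type and a change in RNA per cell cannot be told apart.

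The osteoclast state of the MR culture was read from 9 osteoclast genes, all of which were higher in MR, with TPM sums of 126 in M and 25107 in MR. Acp5 (TRAP) had 51.9 TPM in M and 4947 in MR, and Ctsk (cathepsin K) had 53.1 and 12867. The 7 macrophage genes summed to 20815 in M and 7095 in MR, and 4 of them were lower. The 6 neutrophil genes summed to 1282 in M and 897 in MR, so that both cultures also held RNA of this lineage. The 10 osteoblast and stromal genes summed to 19.0 in M and 26.1 in MR, and the osteoblast genes Sp7, Bglap and Ibsp had no locus in either library. The 6 endothelial genes summed to 64.9 in M and 61.5 in MR. The 7 T and B cell genes summed to 20.5 and 16.9, of which Cd4 made up 13.0 and 9.82, with no locus for Cd3e, Cd3g or Cd8a. The 5 megakaryocyte and platelet genes summed to 541 in M and 72.9 in MR, of which Pf4 made up 505 in M and 38.4 in MR. The 5 erythroid genes summed to 3.35 in M and 2.11 in MR. The part of these other cells in the results below was not tested.

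Of the 10 coupling factors, 9 had an assembled locus in MR and 4 had one in M. Among the 9 with a value, 7 were higher in MR, 0 were lower and 2 were neither. Over all 13802 genes tested, 21.2% were higher in MR and 13.4% were lower. The counts of each gene family and pathway below are also to be read against these shares. The median log2 ratio was 4.01 over these 9 genes and 0.20 over all genes tested. The count of 7 and the median of 4.01 both have to be read with the choice of genes and the filter in mind. The genes were chosen with earlier results of these data known. Of the 7 genes, 5 (Efnb2, Sphk1, Cthrc1, Lif and Calcr) had no locus in M and entered through their level in MR. They could not have been counted otherwise, and their ratios could only be positive. All 1083 tested genes without a locus in M, 7.85% of the genes tested, were counted as higher for the same reason. Only Spns2 and Pdgfb were higher with a locus in both libraries. A gene without a locus is not shown to be silent, since reads too few to assemble would leave no entry. The 5th percentile of TPM over the assembled loci was 0.148 in M and 0.239 in MR, which gives the scale of the lowest levels that the tables list.

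**Figure D1:**
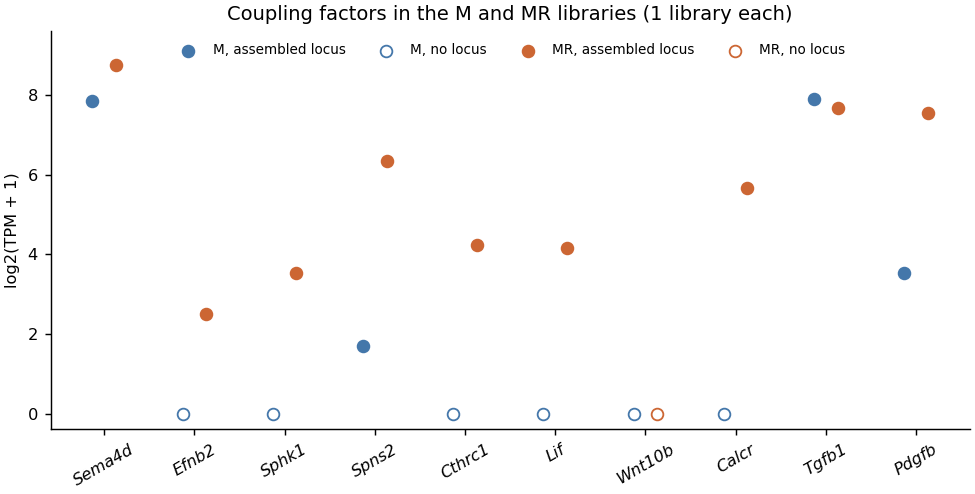
Level of each coupling factor as log2(TPM + 1), 1 point per library, for M (blue) and MR (orange). Open points stand for genes without an assembled locus. Sema4d and Tgfb1 were high in both libraries, Pdgfb and Spns2 were higher in MR, and 5 genes appeared in MR alone.

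The loci differed in how much of each gene they spanned. The tables give the outer ends of a locus only, so exon bases were counted within its extent and need not be covered by reads. All positions are on GRCm38 with the gene extents of GENCODE vM21. In MR the loci spanned 98.5% to 100% of the exon bases of 7 of the 9 genes, and the exceptions were Sema4d with 83.4% and Sphk1 with 66.2%. In M the loci of Sema4d, Tgfb1 and Pdgfb spanned 83.2%, 99.7% and 99.4% of the exon bases, whereas Spns2 was represented by 2 fragments with 15.4%.

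**Figure D2:**
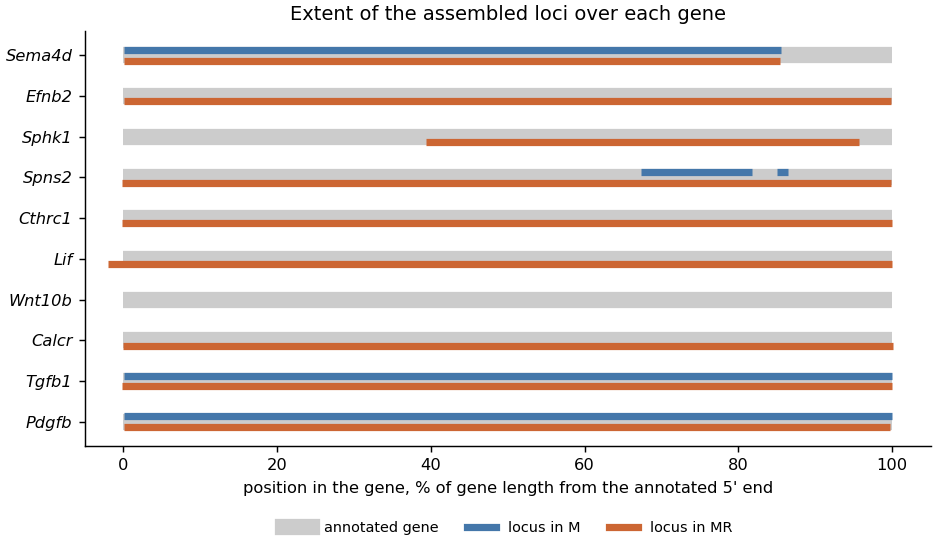
Extent of each assembled locus as a percent of the length of the annotated gene, counted from its 5′ end (grey, annotated gene; blue, M; orange, MR). The Spns2 loci of M were 2 fragments of 550 and 5526 bases, whereas the MR locus spanned 38281 bases. The Sphk1 locus of MR began 2263 bases inside the gene.

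The receptor among the 10 genes is Calcr, the calcitonin receptor, through which calcitonin restrains resorption and which marks differentiated osteoclasts. Calcr (ENSMUSG00000023964.15) is a minus-strand gene of chromosome 6, 3685680 to 3764714. No Calcr locus was assembled in M, and the MR library had 1 locus with a TPM of 50.05. Calcr was thus seen in MR alone, like the other genes without a locus in M. Its level in MR was at or above that of 77.7% of the genes tested. The log2 ratio was 5.67, which ranked 45 among the 13802 genes and was the largest of the 10 coupling factors. Without a locus in M, this ratio and its rank rest on the MR level alone. The log2 ratio was 4.54 with FPKM, which is not scaled to a common total. It was 4.30 with the listed coverage (read depth per base) per gigabase (Gb) of aligned reads. With M at 0 and the same 1 added, both are lower because the MR values, 22.2 in FPKM and 18.7 in coverage per Gb, are smaller than the TPM. About 729 read pairs lay behind the MR value, and with the M value held at 0 the 95% counting interval of the log2 ratio was 5.57 to 5.78 (exact Poisson). Counting intervals cover counting error only, and for the 5 genes without a locus in M they cover that of the MR library alone. The log2 ratio of Calcr fell outside its interval, at 5.47, with the 5th percentile of TPM in place of 0 in M, an alternative chosen after seeing the data, and at 8.97 with a pseudocount of 0.1. The MR locus ran from 3685562 to 3764714, so that its 5′ end fell on the annotated 5′ end of this minus-strand gene. Calcr is the only coupling factor whose position is the same in both mouse builds. Its entry under its own gene name could therefore also be read, and it was listed at 0 TPM in M and 49.7 in MR. A locus on the opposite strand, from 3752689 to 3807385, was assembled in MR alone with a TPM of 6.77 and a coverage of 0.168. It spans 618 exon bases of Calcr, and the sources do not say whether reads were counted by strand.

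The promoter of Calcr is shown because its start was assembled precisely, beside those of Efnb2, which also had a locus in MR alone, and Tgfb1, which was high in both libraries. These are the genes among the 10 whose RefSeq start lay within 50 bases of the assembled 5′ end in MR, at 1 base for Calcr, 15 for Efnb2 and 26 for Tgfb1. Each sequence is the 250 bases before the RefSeq start on GRCm38.p6, 5′ to 3′ on the strand of the gene. They are chr6:3764714-3764963 (minus strand) for Calcr, chr8:8661243-8661492 (minus strand) for Efnb2 and chr7:25686752-25687001 (plus strand) for Tgfb1. Capitals mark matches to the motifs named after the sequences.
Calcr: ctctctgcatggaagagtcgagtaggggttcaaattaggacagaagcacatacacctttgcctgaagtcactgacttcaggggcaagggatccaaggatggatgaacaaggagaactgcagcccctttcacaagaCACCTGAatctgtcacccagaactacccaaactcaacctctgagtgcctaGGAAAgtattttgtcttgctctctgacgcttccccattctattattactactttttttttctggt
Efnb2: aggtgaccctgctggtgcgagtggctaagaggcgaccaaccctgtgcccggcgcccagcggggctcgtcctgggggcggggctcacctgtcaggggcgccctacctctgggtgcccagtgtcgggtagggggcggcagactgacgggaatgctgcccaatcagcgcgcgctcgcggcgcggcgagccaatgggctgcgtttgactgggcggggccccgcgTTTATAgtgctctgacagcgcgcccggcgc
Tgfb1: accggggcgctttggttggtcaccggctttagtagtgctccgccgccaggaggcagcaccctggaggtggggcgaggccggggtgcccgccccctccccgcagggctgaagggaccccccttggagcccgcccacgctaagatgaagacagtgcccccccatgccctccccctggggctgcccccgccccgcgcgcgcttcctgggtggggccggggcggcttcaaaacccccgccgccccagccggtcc
The windows were searched on both strands for the letters TGANTCA of the AP-1 site and TCANGTG, a broad form of the MITF/TFE site. The other letters were GGAAA of the NFAT core, GAGGAA of the PU.1 site and TATAAA of the TATA box. N stands for any base, so a match to TCANGTG need not be an MITF/TFE site. A PU.1 match can overlap an NFAT core match. Calcr held 1 TCANGTG match from base -115 to -109 on the opposite strand, where it reads TCAGGTG. It also held 1 NFAT core match from -65 to -61, with positions counted back from the base before the start. Efnb2 held 1 TATA match on the opposite strand from -30 to -25, and Tgfb1 held no match to these letters. Among 32851 RefSeq promoter windows of this length, 6.75% held the AP-1 letters, 12.2% the TCANGTG letters and 55.6% the NFAT core. The PU.1 letters were held by 23.3% and the TATA letters by 12.4%. The Calcr window had 2 CpG dinucleotides and a GC content of 46.0%. The Efnb2 window had 27 CpG and 72.0% GC, and the Tgfb1 window 21 CpG and 75.2% GC, against medians of 6 CpG and 52.4% GC over all windows. The Calcr and Efnb2 windows thus differed widely in base composition, although both genes had a locus in MR alone. A match is a description of the letters and not of binding.

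Calcr works with receptor activity modifying proteins (RAMPs), which change the peptide that it prefers. Ramp2 and Ramp3 had no locus in either library. Ramp1 had 4.22 TPM in M and 1.51 in MR (log2 ratio -1.05, and -0.82 with coverage or FPKM in place of TPM). Of the 9 other genes of the calcitonin family, 3 were tested, of which 1 was higher, without a locus in M, and 1 lower. Both counts were 0 with FPKM or coverage per aligned Gb. Calcrl, the related receptor of CGRP and adrenomedullin, had 11.1 TPM in M and 16.9 in MR.

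Sphk1 and Spns2 act in sequence: sphingosine kinase 1 makes sphingosine 1-phosphate (S1P), a lipid that attracts and activates osteoblast lineage cells, and Spns2 carries S1P out of the cell. Sphk1 (ENSMUSG00000061878.15, chromosome 11, plus strand, 116530925 to 116536674) had no locus in M and a TPM of 10.6 in MR. The gene was thus seen in MR alone, with a log2 ratio of 3.54 and a counting interval of 3.31 to 3.76 from about 134 read pairs. It was 2.39 as coverage per aligned Gb. A locus on the opposite strand, from 116535277 to 116536672, had a TPM of 9.14 in MR and none in M. It spans 1396 exon bases of Sphk1, and without strand information the reads of these loci cannot be told apart. The Sphk1 value is uncertain for this reason.

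Spns2 (ENSMUSG00000040447.15, chromosome 11, minus strand, 72451638 to 72489904) had 2.24 TPM in M and 80.5 in MR. Spns2 therefore moved from a level that 17.5% of the genes tested were at or under in M to one that 85.6% were at or under in MR. The TPM ratio was 36.0, and its counting interval was wide, from 12.3 to 175 (Clopper-Pearson), since the M fragments correspond to about 3 read pairs against about 1159 in MR. The log2 ratio was 4.65, with a counting interval of 3.14 to 6.92. An entry listed under the name Gm12712, whose GRCm39 position falls on 137 exon bases of Spns2, had 0.442 TPM in M and 13.1 in MR, and its end coincides with that of the longer M fragment.

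The kinase that Sphk1 parallels, Sphk2, had 97.6 TPM in M and 97.1 in MR (log2 ratio -0.01, and -0.66 as coverage per aligned Gb). Sgpl1, the lyase that degrades S1P, had 179 in M and 229 in MR. The best expressed S1P receptors were lower. S1pr1, which draws cells toward S1P, had 15.5 TPM in M and 2.77 in MR (log2 ratio -2.14), and S1pr2, which repels them, had 173 and 76.7 (-1.16). S1pr3 had no locus in M and 1.51 TPM in MR. Plpp1, a lipid phosphate phosphatase, was higher, with 4.83 in M and 54.4 in MR (3.25), whereas its relative Plpp2 was lower, with 23.9 and 10.8 (-1.08). In all, 13 of 16 other genes of the pathway were tested, 3 were higher, 3 were lower and 7 were neither, and 1 was higher with FPKM or coverage per aligned Gb.

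Sema4d and Efnb2 are ligands held in the cell membrane. Semaphorin 4D acts on Plexin-B1 of osteoblasts and restrains bone formation, whereas ephrin-B2 signals to EphB4 on osteoblasts and can signal back into its own cell. Sema4d (ENSMUSG00000021451.16, chromosome 13, minus strand, 51685529 to 51793747) had 229 TPM in M and 427 in MR. In TPM it was the most abundant of the 10 genes in MR and was already among the abundant genes of M, at or above 95.3% of the genes tested there. The TPM ratio was 1.87 and the log2 ratio 0.90, under the threshold of 1. Its counting interval was 0.84 to 0.96 from about 4693 and 3697 read pairs. These read pairs come from the listed coverage, so the interval does not cover the disagreement between units that follows. The unit decided the direction of the difference between M and MR. The coverage listed for Sema4d was 220 in M and 173 in MR, which is 60.7 per aligned Gb in M and 58.1 in MR. The log2 ratio of these was -0.06. In this unit Sema4d stood below Tgfb1, with 89.4, and Pdgfb, with 77.6, in MR. The coverage that corresponds to the listed FPKM was 384 in M and 567 in MR, so that TPM and the listed coverage of this locus do not describe the same quantity. T cells also carry Sema4d. The 7 T and B cell genes summed to 20.5 TPM in M and 16.9 in MR, of which Cd4 made up 13.0 and 9.82. The part of T cells in the Sema4d values was not tested. Which of the units follows the amount of Sema4d RNA cannot be told from these tables. The Sema4d loci ended 15717 bases before the annotated 3′ end in M and 15729 in MR, and 5281 exon bases of the gene lie under an entry named Shc3, with 10.1 TPM in M and 19.3 in MR.

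Plxnb1, the receptor of Sema4d in osteoblasts, had no locus in either library. Plxnb2 had 381 TPM in M and 368 in MR (log2 ratio -0.05). Cd72, a receptor of Sema4d on blood cells, was lower, with 841 in M and 358 in MR (-1.23). Sema7a, a semaphorin anchored in the membrane, was higher, with 1.49 in M and 46.8 in MR (4.26). Among the receptors, Plxnd1 had 32.0 in M and 298 in MR (3.18), Nrp2 had 94.9 and 485 (2.34), and Plxna4 had 2.46 and 18.3 (2.48), all higher. Nrp1, with 73.7 in M and 23.99 in MR (-1.58), and Plxnc1, with 29.8 and 7.53 (-1.85), were lower, so that the neuropilins differed in opposite directions. Of 31 other genes of the family, 21 were tested, 10 were higher, 3 were lower and 8 were neither. Of the 10, 4 had no locus in M and could only be counted as higher, and 6 were higher with FPKM or coverage per aligned Gb.

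Efnb2 (ENSMUSG00000001300.16, chromosome 8, minus strand, 8617434 to 8661242) had no locus in M and a TPM of 4.64 in MR, the lowest MR level of the 9 genes with a value. Efnb2 was thus seen in MR alone and at a level that 24.3% of the genes tested were at or under. The log2 ratio was 2.50, with a counting interval of 2.29 to 2.70 from about 139 read pairs, and it was 1.61 with FPKM or coverage per aligned Gb. Ephb2 had no locus in either library, and Ephb4 had a TPM of 0.595 in M and no locus in MR, which is under the minimum level. Epha4, which also binds ephrin-B2, had no locus in M and a TPM of 8.36 in MR. Efnb1 was higher, with 2.29 in M and 11.1 in MR (1.88). Of 21 other ephrins and Eph receptors, 7 were tested, 6 were higher and 1 was lower. Of the 6, 4 had no locus in M and could only be counted as higher. With FPKM or coverage per aligned Gb the counts were 6 and 0.

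Cthrc1, Lif and Wnt10b encode secreted factors that promote osteoblast differentiation. Cthrc1, collagen triple helix repeat containing 1, is released by bone resorbing osteoclasts. Cthrc1 (ENSMUSG00000054196.7, chromosome 15, plus strand, 39076932 to 39087121) had no locus in M and a TPM of 17.9 in MR. The extent of the MR locus matched that of the gene, beginning 18 bases before its start and ending 4 bases before its end, and it was seen in MR alone. The log2 ratio was 4.24, with a counting interval of 3.99 to 4.48 from about 125 read pairs. As coverage per aligned Gb it was 3.16. Cthrc1 is also made by stromal cells. Col1a1 and Col1a2, the collagen genes of such cells, had a TPM of 6.63 and 7.36 in M and of 10.1 and 8.22 in MR. Of the 7 osteoblast and stromal genes tested, 2 were higher, 2 were lower and 3 were neither. Lepr and Pdgfra were higher with no locus in M, and Alpl and Cxcl12 were lower with no locus in MR. The part of stromal cells in the Cthrc1 value was not tested.

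Lif, leukemia inhibitory factor, is a cytokine that signals through the receptors Lifr and Il6st (gp130). Lif (ENSMUSG00000034394.14, chromosome 11, plus strand, 4257557 to 4272514) had no locus in M and a TPM of 16.8 in MR. It was seen in MR alone at nearly the level of Cthrc1, and its locus began 293 bases before the annotated start. The log2 ratio was 4.15, with a counting interval of 3.999 to 4.30 from about 316 read pairs, and it was 3.05 as coverage per aligned Gb. The receptors were neither higher nor lower, with 4.38 TPM in M and 4.15 in MR for Lifr and of 25.5 and 27.2 for Il6st. Of 17 other genes of this cytokine family, 10 were tested, 2 were higher, 1 was lower and 7 were neither. The 2, Clcf1 and Socs3, had no locus in M and could only be counted as higher, and the count was 0 with FPKM or coverage per aligned Gb.

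Wnt10b (ENSMUSG00000022996.15, chromosome 15, minus strand, 98770712 to 98778150), a Wnt ligand that favours bone formation, had no locus in either library and was left without a ratio. The tables do hold an entry under the name Wnt10b, with 1.46 TPM in M and 10.1 in MR. Its position is on GRCm39, and on GRCm38, to which the reads were aligned, the same numbers fall on Rnd1. The assembled locus of Rnd1 had 4.63 TPM in M and 35.2 in MR. Read by its listed name, Wnt10b would appear to be higher in MR, and read by position it was not seen.

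Of 46 other genes of the Wnt pathway 31 had no locus, 13 were tested, 5 were higher, 3 were lower and 5 were neither. Of the 5 that were higher, 4 had no locus in M. Wls, which escorts Wnt ligands to the cell surface, was lower, with 39.6 TPM in M and 15.7 in MR (-1.28). The receptor Fzd7 was lower, with 27.9 and 6.34 (-1.98), and Fzd5 was higher, with 1.73 and 12.5 (2.30). Both frizzled values depended on loci listed without a strand: with these left out, Fzd7 had no value and the log2 ratio of Fzd5 was -1.45. The co-receptors Lrp5 and Lrp6 had a TPM of 22.1 and 15.3 in M and of 13.4 and 13.9 in MR. Fzd4, Ror2 and Tpbg had no locus.

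Tgfb1 and Pdgfb encode growth factors that recruit and expand osteoblast precursors, and Tgfb1 is also stored in bone matrix in latent form. Tgfb1 (ENSMUSG00000002603.15, chromosome 7, plus strand, 25687002 to 25705077) had 239 TPM in M and 201 in MR. It was the most abundant of the 10 genes in M and stayed at or above 94.6% of the genes tested in MR. The TPM ratio was 0.843 and the log2 ratio -0.24, well inside the threshold, with a counting interval of -0.30 to -0.19. Its sign was the same under each of the 9 alternatives tried for it, from -0.43 to -0.22. An entry named Gm45225, which falls on 884 exon bases at the 5′ end of Tgfb1, had 79.8 TPM in M and 72.3 in MR.

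Pdgfb (ENSMUSG00000000489.7, chromosome 15, minus strand, 79995874 to 80014977) had 10.6 TPM in M and 187 in MR. With Spns2 it was the gene with a locus in both libraries and a large difference, and it moved from at or above 45.3% of the genes tested in M to 94.0% in MR. The TPM ratio was 17.6, with a counting interval of 15.4 to 20.2 from about 228 and 3162 read pairs. The log2 ratio was 4.01, with a counting interval of 3.82 to 4.21, and it stayed between 3.82 and 4.12 under each of its 9 alternatives. Pdgfb is also made by platelets and endothelial cells. The platelet marker sum was 541 in M and 72.9 in MR, of which Pf4 made up 505 and 38.4. Of the 5 platelet genes, 3 were neither higher nor lower. The endothelial sum was 64.9 in M and 61.5 in MR. The part of these cells in the Pdgfb values was not tested.

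**Figure D3:**
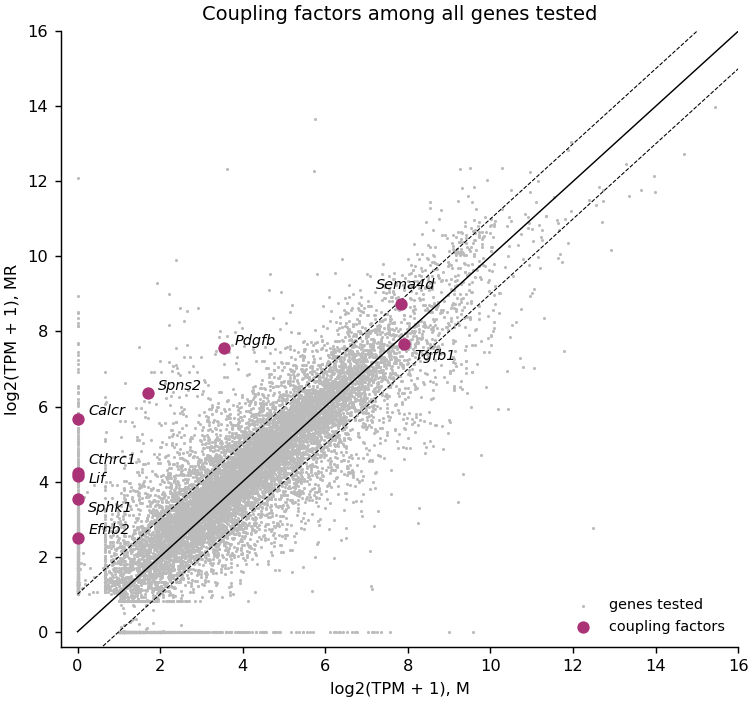
All 13802 genes tested (grey) and the 9 coupling factors with a value (purple), as log2(TPM + 1) in M (x axis) and MR (y axis). The solid line marks equal levels and the dashed lines a log2 ratio of 1 and -1. Pdgfb and Spns2 lay above the upper dashed line, Sema4d and Tgfb1 between the lines, and 5 genes on the y axis.

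Genes that receive or release TGF-β differed in both directions. Tgfbr1, the type I receptor, was higher, with 28.7 TPM in M and 173 in MR (log2 ratio 2.55). Itgav, the integrin chain that helps to activate latent TGF-β, had 34.5 in M and 185 in MR (2.39), and Ltbp3, which binds the latent form, had 7.08 and 40.5 (2.36). Itgav and Ltbp3 were higher, as was Ltbp2, with 3.66 in M and 13.4 in MR (1.63), whose ratio was 0.87 when only the locus with the most exon bases was used. Tgfbr2 had 82.6 in M and 124 in MR (0.58), and Furin, a protease that cleaves the precursor, had 38.8 and 63.1 (0.69). The co-receptor Eng, with 134 in M and 22.8 in MR (-2.50), and the receptor Acvrl1, with 31.9 and 5.70 (-2.29), were lower. So were Nrros, a macrophage protein that holds latent TGF-β, with 270 and 103 (-1.38), Thbs1, with 76.6 and 20.1 (-1.88), and Tgfbi, a gene induced by TGF-β, with 94.1 and 24.4 (-1.90). Of 26 other genes of the pathway, 20 were tested, 4 were higher, 5 were lower and 11 were neither, with a median log2 ratio of -0.17. Over all genes tested, 21.2% were higher and 13.4% were lower, with a median of 0.20, and no test set the list apart from these.

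Pdgfa, the other classical PDGF chain, was higher, with 4.14 TPM in M and 16.1 in MR (1.73). The receptors were low: Pdgfra had no locus in M and 1.51 in MR (1.33, and 0.74 with FPKM or coverage per aligned Gb), and Pdgfrb had 2.05 and 3.75. Both receptors are also in the stromal marker list. Of 6 other genes of the family, 5 were tested, 3 were higher and 2 were neither. Of the 3, Pdgfra and Plat had no locus in M and could only be counted as higher, and the count was 1 with FPKM.

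**Figure D4:**
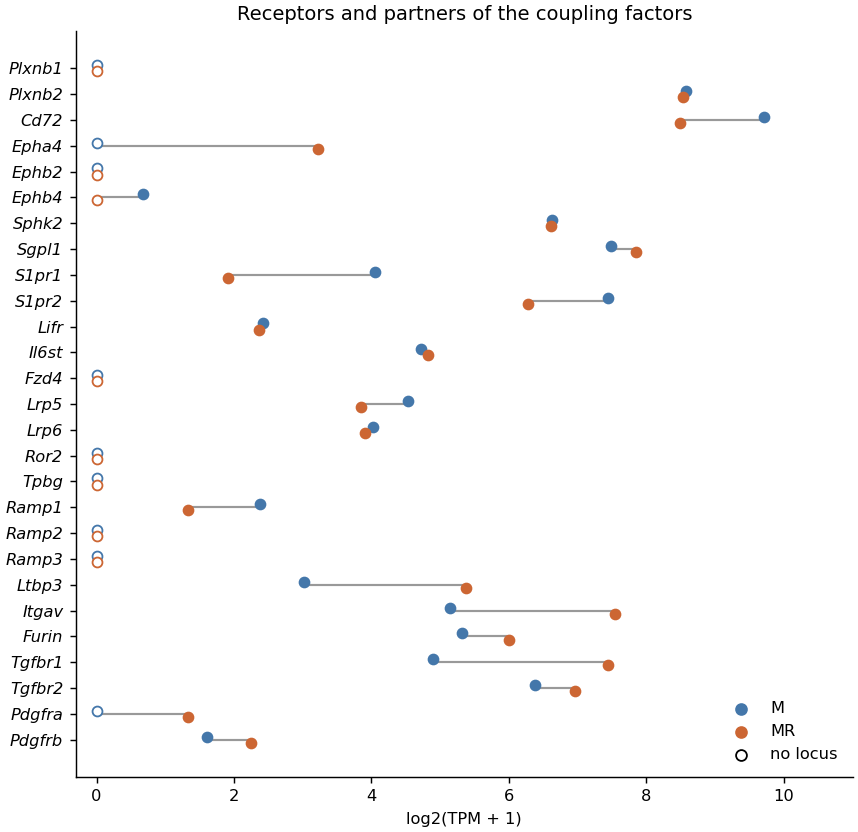
Levels of the 27 receptors and direct partners of the coupling factors as log2(TPM + 1) in M (blue) and MR (orange), with a grey line between the 2 libraries and open points where no locus was assembled. Of the 19 tested, 5 were higher in MR (Epha4, Ltbp3, Itgav, Tgfbr1 and Pdgfra), 4 were lower (Cd72, S1pr1, S1pr2 and Ramp1) and 10 were neither. Over all genes tested, 21.2% were higher and 13.4% were lower. Epha4 and Pdgfra had no locus in M and could only be counted as higher. The calls of Pdgfra and Ramp1 were lost with FPKM or coverage per aligned Gb, smaller units to which 1 was also added.

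Among 19 other secreted or vesicle-borne coupling candidates, 10 were tested, 2 were higher, 3 were lower and 5 were neither, and 1 was higher as coverage per aligned Gb. Igf1, insulin-like growth factor 1, was lower, with 147 TPM in M and 13.2 in MR (log2 ratio -3.38), and so was the chemokine Cxcl16, with 126 and 28.5 (-2.11). Vegfa, an angiogenic factor, was higher, with 7.43 and 18.2 (1.19, and 0.68 as coverage per aligned Gb). Sema7a is also a member of this list. Over the 187 genes of all lists, some of which stand in more than 1 list, 100 were tested, 35 were higher and 20 were lower, and their median log2 ratio was 0.04 against 0.20 over all genes tested. Of the 35, 18 had no locus in M and could only be counted as higher, and 23 were higher with FPKM or coverage per aligned Gb. These shares are read against the 21.2% and 13.4% of all genes, and like the coupling factors the lists were chosen with results of these data known.

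The genes most like the called coupling factors were sought among 11769 protein-coding genes with a locus of their own, by distance over the 2 libraries in log2(TPM + 1). For Spns2 the nearest gene was Matk, at a distance of 0.01, with 2.27 TPM in M and 80.3 in MR. For Pdgfb it was Lpcat1, at 0.17, with 11.7 and 174. For the 5 genes without a locus in M, the likeness rests on the MR level alone: Rap2b for Calcr, Ndrg4 for Cthrc1, Antxr1 for Lif, Fam57b for Sphk1 and Ccser1 for Efnb2. With 2 libraries many genes share a pattern, and the nearest gene is a description only.

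**Figure D5:**
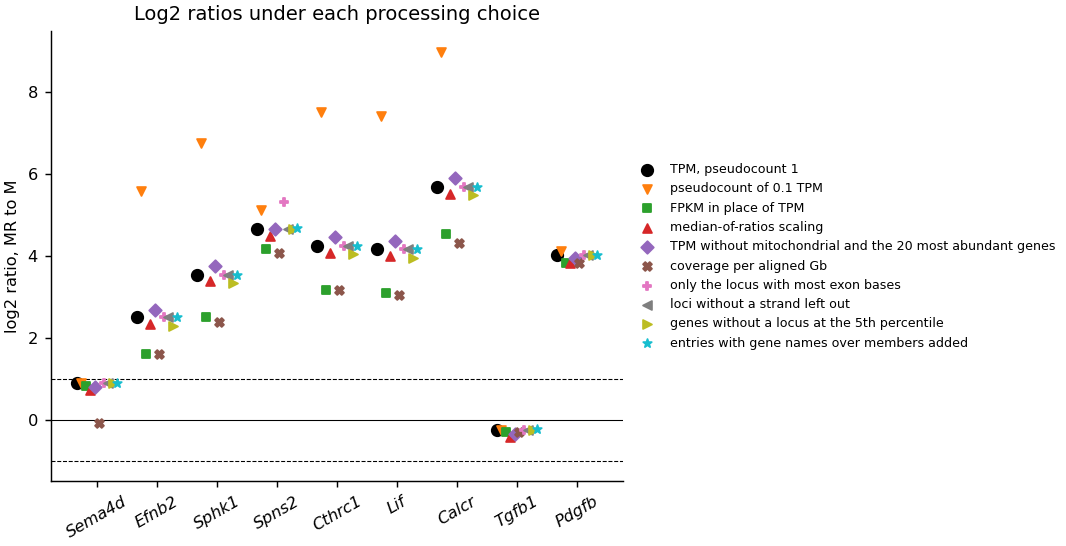
Log2 ratio of MR to M of each coupling factor with a value, under the TPM with a pseudocount of 1 (black) and each alternative (colours). Dashed lines mark 1 and -1. The 7 genes counted as higher stayed above 1 in every setting shown, and Sema4d went from 0.90 to -0.06 with coverage per aligned Gb. For the 5 genes without a locus in M the sign was fixed, so among the 7 only Spns2 and Pdgfb could have reversed.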

How the data were processed

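RNA-seq of 2 libraries, 1 each of M and MR, was analysed. Per the labels and the study's methods, total RNA was extracted with the RNeasy micro kit, libraries were made with the NEB Next Ultra RNA LP Kit and paired reads of 150 bases were obtained. The authors trimmed reads with Trim Galore, aligned them to mm10 (GRCm38) with HISAT2 and ran StringTie with GENCODE vM27, whose positions are on GRCm39. Versions are not given in the sources used here. The deposited tables list for each entry the coverage (read depth per base, not scaled for depth), the FPKM and the TPM, which is scaled so that the loci assembled from the reads sum to 1000000.

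Only these loci (19422 in M, 19922 in MR) were used. Each was given to the GENCODE vM21 gene of its strand that had most exon bases, and no fewer than 50, within its extent, and TPM was summed per gene. Genes lying inside the locus of another gene (93) had no value. Loci given to genes held 95.4% and 96.9% of the TPM in M and MR. Aligned bases, taken as the commonest quotient of coverage and FPKM over entries, were 3.63 Gb in M and 2.98 Gb in MR. Read pairs were approximated as coverage times exon bases over 300. Named genes are all 10 coupling factors, every listed gene past the threshold that reached 10 TPM in either library, and the direct receptors and partners. Alternatives were another pseudocount, minimum level, threshold, unit or scaling, and other rules for loci. Members and lists were chosen with earlier results of these data known. Scripts were tested on simulated data and used Python 3.11.15, numpy 2.4.6, pandas 2.3.3 and scipy 1.17.1.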

Additional observations from a re-analysis of the deposited data

Results flagged for a closer look

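Several signals lay in entries that the comparison did not use. Under gene names with GRCm39 positions, Wnt10b was listed at 10.1 TPM in MR against 1.46 in M, Lif at 1.73 against 0.696, Tgfb1 at 1.84 against 1.54 and Efnb2 at 0.0993 against 0.0983. None of these positions falls on the named gene in GRCm38. Calcr, whose position is the same in both builds, was listed at 49.7 against 0.

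Loci given to no gene lay on the opposite strand of 4 coupling factors in MR, with no such locus at the same place in M. Their TPM was 9.14 over Sphk1, 6.77 over Calcr, 1.77 over Efnb2 and 1.41 over Sema4d. In M, loci of this kind lay at other places, with 3.06 over Sema4d and 1.15 over Spns2.

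Entries of other genes, placed over the coupling factors by their GRCm39 positions, had more TPM in MR than in M over 5 genes. These were Shc3 over Sema4d (19.3 against 10.1), Gm12712 over Spns2 (13.1 against 0.442) and Cygb over Sphk1 (2.44 against 0.588). The others were Syngr1 over Pdgfb (1.81 against 0.0698) and Rims2 over Cthrc1 (0.00461 against 0.00186). The Rims2 values lie under the 5th percentile of TPM over the assembled loci. Over Tgfb1 such entries had less TPM in MR, Gm45225 at 72.3 against 79.8 in M and Cyp2b27-ps at 5.48 against 6.04. Cygb, Syngr1 and Cyp2b27-ps lie on the opposite strand of the coupling factor. The threshold for higher and lower was not applied to these entries. These differences have no replicate check, and how many reads they share with the coupling factors was not tested.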

How the results depend on the processing

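The 7 coupling factors counted as higher and the 0 counted as lower were found under each alternative with 1 exception. At a TPM of at least 10 the count was 6, since Efnb2 was under that level. Of the 7, only Spns2 and Pdgfb could have changed sign, since the M value of the other 5 was 0 or near 0 throughout. Of 81 log2 ratios of single coupling factors under other settings, 54 stayed within the counting interval, 27 moved out of it and 0 of those past the threshold changed sign. A pseudocount of 0.1 raised the ratios of the 5 genes without a locus in M to between 5.57 and 8.97. Coverage per aligned Gb turned Sema4d from 0.90 to -0.06. Setting genes without a locus to the 5th percentile of TPM left Calcr at 5.47, and adding named entries that lie over the genes left all 9 ratios within the counting interval. Both were chosen after seeing the data.

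Companion genes counted as higher went from 35 to 23 with FPKM and to 23 with coverage per aligned Gb. The added 1 and the minimum of 1 were kept in these units, whose values are smaller, so genes of low level lose their call. Pdgfra, with no locus in M, had 1.51 in TPM and 0.670 in coverage per aligned Gb in MR. How much of the fall is due to the unit itself was not tested. Over all genes, a TPM of at least 10 left 1656 higher and 1034 lower, and a log2 threshold of 2 left 986 and 550. Median-of-ratios scaling, by a factor of 1.13, moved the median log2 ratio of all genes from 0.20 to 0.03. No paired analysis was possible because each group has 1 library. For the same reason leaving out a replicate was not possible. Depth limits most the M level of Spns2 and the genes with no locus, for which no limit could be set.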
